A study of Mus musculus with 14 samples.

Results

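The 3 nuclear RNA polymerases of the mouse are built from a common plan, and the mRNAs of their subunits and dedicated initiation factors were measured in leukemia cells in which Sgf29 was targeted by CRISPR. The set was taken from rows of the deposited count table whose symbol begins with Polr1, Polr2 or Polr3 followed by a letter, together with Cd3eap, Znrd1, Twistnb, Taf1a, Taf1b, Taf1c, Taf1d, Ubtf, Rrn3, Brf1, Brf2, Bdp1 and Maf1. It holds 40 of 22155 genes, and all 40 passed the filter on low counts that left 11169 genes for testing. The cells were MLL-AF9 leukemia cells of the mouse that express Cas9, and both groups carried the fusion oncogene and Cas9. They received an sgRNA in the lentiviral ipUSEPR vector, either sgCtrl (3 libraries) or sgSgf29 (3 libraries), and were held in puromycin at 2 µg/ml for 3 days. SGF29 is a double Tudor domain reader protein of the SAGA and ATAC acetyltransferase complexes. The question addressed here is how the mRNAs of each polymerase differed between sgSgf29 and sgCtrl cells, and whether the polymerases differed from each other.

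RNA polymerase I transcribes the ribosomal RNA genes into a single long precursor, RNA polymerase II transcribes messenger RNA, and RNA polymerase III makes 5S ribosomal RNA, transfer RNA and other short RNAs. Each enzyme has a pair of large subunits that form the active centre, a pair of subunits that nucleate assembly, a stalk, a zinc ribbon subunit and a core of small subunits that all of them share, while Pol I and Pol III each carry further subunits that resemble initiation factors of Pol II. Making ribosomes needs all of them, since Pol I and Pol III supply the RNA and Pol II the ribosomal protein mRNAs. The libraries were made from mRNA, so the transcripts of Pol I and Pol III themselves were not measured.

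Sgf29 mRNA was lower in every sgSgf29 library than in every sgCtrl library. It measured 36.2, 40.4 and 40.4 CPM with sgCtrl and 12.6, 13.4 and 17.4 CPM with sgSgf29. CPM here is a gene's count relative to the size of its library after TMM (trimmed mean of M values) normalisation. The log2 fold change of sgSgf29 against sgCtrl was -1.43 (standard error 0.11, edgeR adjusted p = 2.88e-10). An mRNA level measures neither the protein nor the share of edited cells. The labels number the transductions but do not tell cultures, repeats or sgRNA sequences apart, so that a p-value reflects the spread between the sequenced samples only, and this may be technical. Between 16003990 and 21786618 counts were assigned to genes per library, of which the 40 genes took 0.250% to 0.285%. The lowest count of any of them in any library was 171, for Taf1a. Marker genes moved with the sgRNA as well. Of all genes tested, 34.4% were called lower and 35.4% higher at an edgeR adjusted p under 0.05. Among 12 markers of mature myeloid cells 10 rose and 1 fell, and their summed level was 2378 to 2522 CPM in sgCtrl and 3786 to 3877 CPM in sgSgf29 libraries. Among 7 tested genes of progenitor and leukemia cells 5 fell and 2 rose, with Cd34 at 0 in every library. Their summed level was 14190 to 15510 CPM against 9464 to 9827 CPM, most of it Elane, which averaged 14240 CPM in sgCtrl and 9302 CPM in sgSgf29. Of 10 proliferation genes 8 fell and none rose (2176 to 2351 CPM against 1546 to 1848 CPM). Of 6 lymphoid markers only Nkg7 was high enough to test, with 7.69, 7.30 and 8.69 CPM in sgCtrl and 3.99, 2.98 and 2.74 CPM in sgSgf29, and it fell (log2 fold change -1.31, edgeR adjusted p = 1.72e-06). Defining markers of red cells and fibroblasts were too low to test, with at most 1 count for a red cell gene and 5 for a collagen gene in any library. The part of these markers in the results below was not tested, and in bulk RNA fewer cells of a type cannot be told apart from less RNA per cell.

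Most of the polymerase genes fell. Of the 40 genes, 30 (75.0%) were lower and 2 (5.0%) were higher in sgSgf29 cells at an edgeR adjusted p under 0.05, and 8 did not pass. In the same comparison 69.8% of all tested genes were called, 34.4% lower and 35.4% higher. For 29 genes all 3 sgSgf29 libraries lay below all 3 sgCtrl libraries, and for 2 genes they lay above, whereas 72.1% of all tested genes did not overlap between groups, with 35.1% wholly below and 37.0% wholly above. The median log2 fold change was -0.33 over the 40 genes and 0.012 over all genes tested. The falls were mostly less than 2-fold. Polr1b and Taf1d fell by 2-fold or more and none of the 40 rose that far, whereas 4.67% of all tested genes fell and 10.1% rose by 2-fold or more. The 2 genes that rose were Polr2a and Maf1, which encode the largest subunit of Pol II and the repressor of Pol III.

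**Figure D1:**
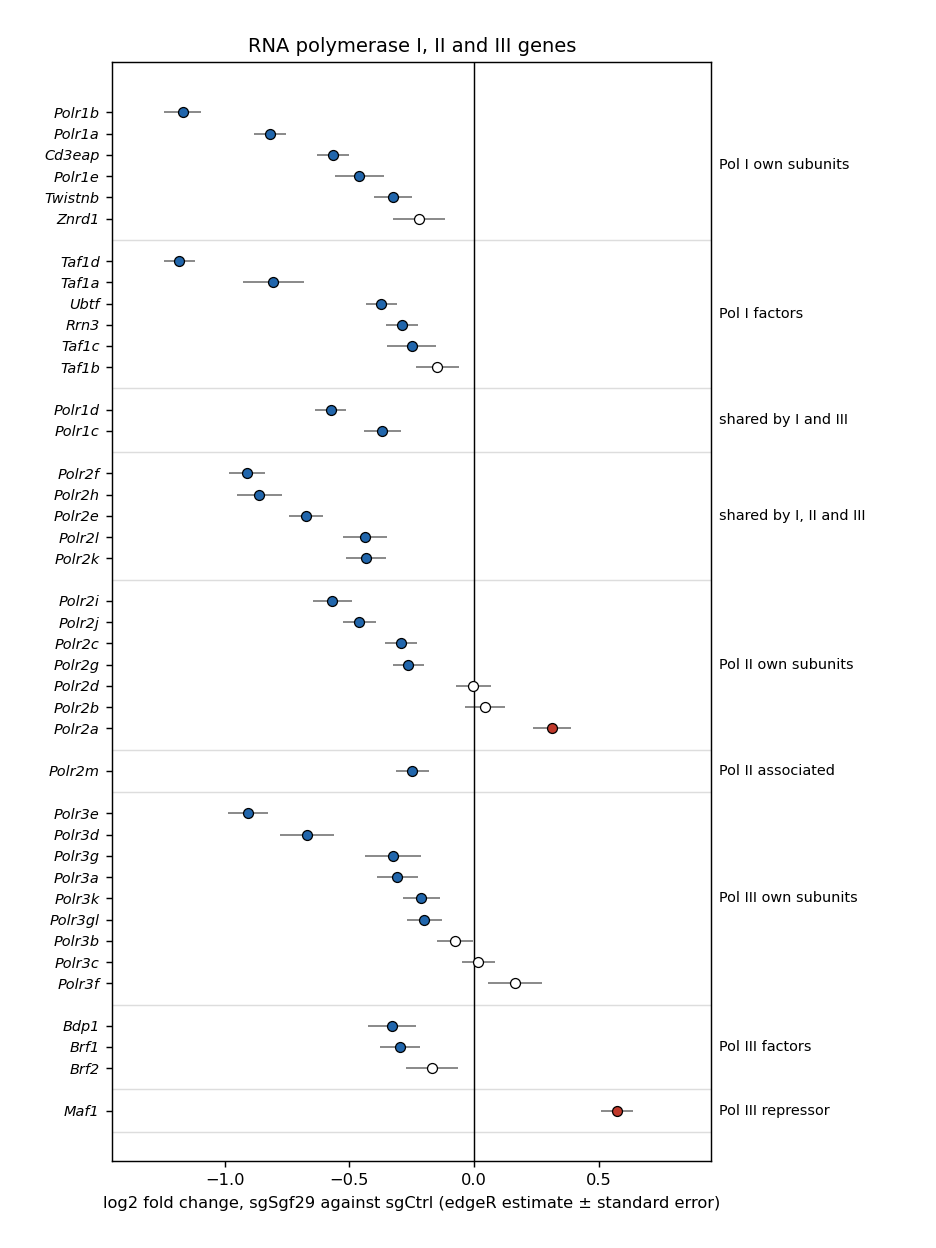
Log2 fold change of sgSgf29 against sgCtrl cells on the horizontal axis for each of the 40 genes, in rows by polymerase and role. Points are estimates from edgeR, bars are 1 standard error, and filled points passed an adjusted p of 0.05. All 7 shared subunits lie left of 0, while Polr2a and Maf1 are the filled points to the right.

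Each enzyme was then taken by itself, without a test between these short lists of genes. Among subunits that belong to Pol I alone, 5 of 6 fell, with a median log2 fold change of -0.51. Among those of Pol II alone, 4 of 7 fell and 1 rose, with a median of -0.26. Among those of Pol III alone, 6 of 9 fell and none rose, with a median of -0.21. The shares called in either direction were 83.3%, 71.4% and 66.7% for Pol I, Pol II and Pol III, against 69.8% of all genes tested. The shares called lower were 83.3%, 57.1% and 66.7%, against 34.4% of all genes tested. All 5 subunits that the 3 enzymes share fell (median -0.67), and so did both subunits shared by Pol I and Pol III. Counting the shared genes with each enzyme, 12 of 13 subunits of Pol I and 9 of 12 of Pol II were lower. For Pol III it was 13 of the 16 in the set. The 16 count both of the alternative paralogues Polr3g and Polr3gl and leave out Crcp, taken below with the accessory genes of Pol III. The summed level of the 6 Pol I subunits was 376, 365 and 368 CPM with sgCtrl and 230.2, 223 and 236 CPM with sgSgf29. That of the 7 Pol II subunits was 564, 544 and 579 CPM in sgCtrl against 499.6, 491 and 527 CPM in sgSgf29. For the 9 Pol III subunits it was 410.2, 417 and 408 CPM against 348, 349 and 346 CPM. On the TMM scale each of the sums was lower in every sgSgf29 library than in every sgCtrl library. The TMM factors were 0.917, 0.934 and 0.919 in sgCtrl and 1.06, 1.10 and 1.09 in sgSgf29. The separation of the Pol II and Pol III sums depends on this scale. The ratio of the Pol I sum to the Pol II sum within a library was 0.666, 0.671 and 0.636 in sgCtrl and 0.461, 0.453 and 0.448 in sgSgf29. The ratio of the Pol III sum to the Pol II sum was 0.728, 0.766 and 0.704 in sgCtrl and 0.697, 0.709 and 0.657 in sgSgf29. The first ratio was lower in each sgSgf29 library than in any sgCtrl library, and the second overlapped between the groups.

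The windows before the gene starts are shown for 5 genes. Polr1a and Polr2a encode the largest subunits of Pol I and Pol II and moved in opposite directions. Among the 6 Pol I subunits and the 6 Pol I factors, only Cd3eap and Rrn3 have the motif CACGTG in their windows. The windows of Polr1b and Taf1d, which fell most in the set, do not hold it. Polr3e is the Pol III subunit with a tRNA gene next to its start. The sequences are from RefSeq on GRCm38.p6, run 5′ to 3′ on the gene's strand and give the 250 bases before the start. Capitals mark the E-box motif CACGTG, a palindrome that reads the same on both strands, and in Polr3e they mark part of the annotated tRNA gene.
Polr1a, chr6:71908803-71909052, plus strand: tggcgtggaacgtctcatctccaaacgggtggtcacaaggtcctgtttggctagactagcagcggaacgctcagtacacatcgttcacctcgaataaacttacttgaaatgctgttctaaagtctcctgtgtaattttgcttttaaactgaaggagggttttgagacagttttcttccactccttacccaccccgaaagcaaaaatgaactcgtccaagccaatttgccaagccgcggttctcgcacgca
Polr2a, chr11:69758634-69758883, minus strand: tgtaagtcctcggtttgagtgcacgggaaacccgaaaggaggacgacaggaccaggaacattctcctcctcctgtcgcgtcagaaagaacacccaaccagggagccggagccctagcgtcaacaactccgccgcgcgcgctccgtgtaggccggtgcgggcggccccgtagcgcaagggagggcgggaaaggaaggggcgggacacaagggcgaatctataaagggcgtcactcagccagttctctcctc
Rrn3, chr16:13780449-13780698, plus strand: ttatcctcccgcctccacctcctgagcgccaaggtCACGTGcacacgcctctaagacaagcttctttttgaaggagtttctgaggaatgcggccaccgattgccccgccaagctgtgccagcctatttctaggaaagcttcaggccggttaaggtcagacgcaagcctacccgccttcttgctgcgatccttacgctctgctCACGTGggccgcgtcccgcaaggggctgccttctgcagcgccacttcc
Cd3eap, chr7:19359484-19359733, minus strand: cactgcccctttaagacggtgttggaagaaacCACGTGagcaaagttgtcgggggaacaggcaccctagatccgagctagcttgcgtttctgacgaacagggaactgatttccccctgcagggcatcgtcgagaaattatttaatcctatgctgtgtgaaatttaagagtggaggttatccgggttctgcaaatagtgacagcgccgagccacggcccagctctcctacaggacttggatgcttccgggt
Polr3e, chr7:120917528-120917777, plus strand: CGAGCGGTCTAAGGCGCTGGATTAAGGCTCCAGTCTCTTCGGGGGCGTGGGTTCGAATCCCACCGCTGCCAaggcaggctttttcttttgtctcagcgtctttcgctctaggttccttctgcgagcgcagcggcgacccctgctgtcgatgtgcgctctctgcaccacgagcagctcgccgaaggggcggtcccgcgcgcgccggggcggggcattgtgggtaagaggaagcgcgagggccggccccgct
The Rrn3 window holds the E-box motif 2 times and the Cd3eap window 1 time, and the other 3 sequences do not hold it. Including 50 bases after the start, CACGTG occurs in the windows of 6 of the 32 genes of the set that have one (18.8%): Cd3eap, Rrn3, Polr2h, Polr3c, Polr3e and Polr3gl. It occurs in 1496 of 16340 genes of the count table with a window of that length (9.16%), which include genes too low to test. Of the genes that fell, 5 of 25 hold it, and of those that did not pass, 1 of 6, which is Polr3c. RefSeq places n-TLaag4, a leucine tRNA gene of 82 bases and hence a gene that Pol III transcribes, at chr7:120917517-120917598, and its end lies 180 bases before the start of Polr3e on the same strand. It was looked for after the sequence had been seen. A tRNA gene overlaps the window of 1 of the 32 genes (3.12%) and of 5 of the 16340 genes (0.0306%).

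The large subunits of Pol I fell most among its own subunits. Polr1b encodes the second largest subunit, which closes the active centre, and lies at chr2:129100970-129128060. It measured 95.8, 86.8 and 79.2 CPM with sgCtrl and 38.3, 39.2 and 38.9 CPM with sgSgf29. The sgSgf29 libraries lay close together and the lowest sgCtrl library was still 79.2 CPM. The log2 fold change was -1.17 (standard error 0.074, edgeR adjusted p = 2.37e-11). Polr1a, at chr6:71909053-71979435, encodes the largest subunit with the catalytic centre. Its level was 94.6, 94.3 and 94.4 CPM in sgCtrl and 55.7, 50.4 and 54.8 CPM in sgSgf29, and the log2 fold change was -0.82 (standard error 0.065, edgeR adjusted p = 7.16e-10). Cd3eap and Polr1e encode a pair that docks on the core and works in the manner of the Pol II factor TFIIF. Cd3eap measured 105, 100.5 and 104 CPM against 69.0, 66.6 and 73.9 CPM and fell by 0.57 on the log2 scale (standard error 0.065, edgeR adjusted p = 1.44e-07). Polr1e fell by 0.46 and the stalk subunit Twistnb, which meets the factor RRN3, by 0.32 on the log2 scale. None of these 5 genes overlapped between the groups. Znrd1, the zinc ribbon subunit that takes part in RNA cleavage, had a log2 fold change of -0.22 that did not pass (edgeR adjusted p = 0.0617), and its groups overlapped. Without the first sgCtrl library, which is its lowest control at 21.0 CPM, the value was -0.31 and passed (edgeR adjusted p = 0.0172). Without the third sgCtrl library, its highest control at 27.7 CPM, the value was -0.0996 and did not pass (edgeR adjusted p = 0.368).

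Of the 6 initiation factors of Pol I, 5 fell and none rose. TAF1A, TAF1B, TAF1C and TAF1D join the TATA-binding protein in the promoter factor SL1. Taf1d fell most of all 40 genes, from 175, 178 and 177 CPM to 77.0, 80.9 and 75.6 CPM, and the log2 fold change was -1.18 (standard error 0.062, edgeR adjusted p = 1.21e-12). Every sgSgf29 value was less than the lowest control by more than the whole range of either group. GENCODE annotates 8 small nucleolar RNA genes inside Taf1d on its strand, and how reads from them were assigned is not given in the sources used here. Taf1a measured 16.3, 17.7 and 14.7 CPM in sgCtrl and 10.6, 9.02 and 8.36 CPM in sgSgf29, and its log2 fold change was -0.80 (standard error 0.12, edgeR adjusted p = 7.24e-06). The other SL1 subunits had smaller log2 fold changes. Taf1b had a log2 fold change of -0.15 that did not pass, and Taf1c one of -0.25 that passed (edgeR adjusted p = 0.0282) although its groups overlapped. The Taf1c call was lost without the first or the second sgCtrl library or the first or the third sgSgf29 library (edgeR adjusted p = 0.184, 0.0547, 0.1 and 0.125). Ubtf encodes the HMG box protein that binds along ribosomal RNA genes and is the most abundant of the set by CPM. It measured 299, 301 and 323 CPM with sgCtrl and 237, 243 and 232 CPM with sgSgf29, and the log2 fold change was -0.37 (standard error 0.062, edgeR adjusted p = 2.17e-05). Rrn3, the growth-regulated factor that brings Pol I to SL1, measured 78.0, 70.8 and 74.0 CPM against 62.0, 60.0 and 60.4 CPM and fell by 0.29 (standard error 0.065, edgeR adjusted p = 0.000561). The groups of both genes were apart, by a smaller margin than for Taf1d.

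The shared subunits fell without exception. Polr1c and Polr1d encode the pair that nucleates the assembly of both Pol I and Pol III, and they are the counterparts of POLR2C and POLR2J in Pol II. Polr1d measured 206, 188 and 197 CPM with sgCtrl and 134, 127 and 136 CPM with sgSgf29, with a log2 fold change of -0.58 (standard error 0.063, edgeR adjusted p = 7.74e-08). Polr1c measured 49.2, 48.0 and 52.4 CPM against 41.7, 37.0 and 37.5 CPM, and its log2 fold change of -0.37 (standard error 0.075, edgeR adjusted p = 0.000189) was the smaller of the pair. The 5 genes common to all enzymes, Polr2e, Polr2f, Polr2h, Polr2k and Polr2l, encode small subunits of the core. Among them Polr2f fell most, from 171, 148 and 167 CPM to 92.3, 81.4 and 84.6 CPM, with a log2 fold change of -0.91 (standard error 0.071, edgeR adjusted p = 5.25e-10). Polr2e measured 137, 122 and 145 CPM in sgCtrl and 85.7, 82.3 and 85.5 CPM in sgSgf29, and the log2 fold change was -0.67 (standard error 0.069, edgeR adjusted p = 2.68e-08). For Polr2h the values were 62.1, 48.9 and 62.9 CPM and 32.1, 29.9 and 33.9 CPM, and the log2 fold change was -0.86 (standard error 0.090, edgeR adjusted p = 3.69e-08). In Polr2e, Polr2f and Polr2h the second sgCtrl library was the lowest of the controls, and it still exceeded every sgSgf29 library. Polr2k and Polr2l fell by 0.43 and 0.44 on the log2 scale. In Polr2l the second sgCtrl library was also the lowest control, at 74.2 CPM, just above the third sgSgf29 library at 72.3 CPM. A pseudogene of Polr2k is annotated, so that some of its reads could be split between the copies. Pseudogenes of the other genes of the set were not looked for.

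**Figure D2:**
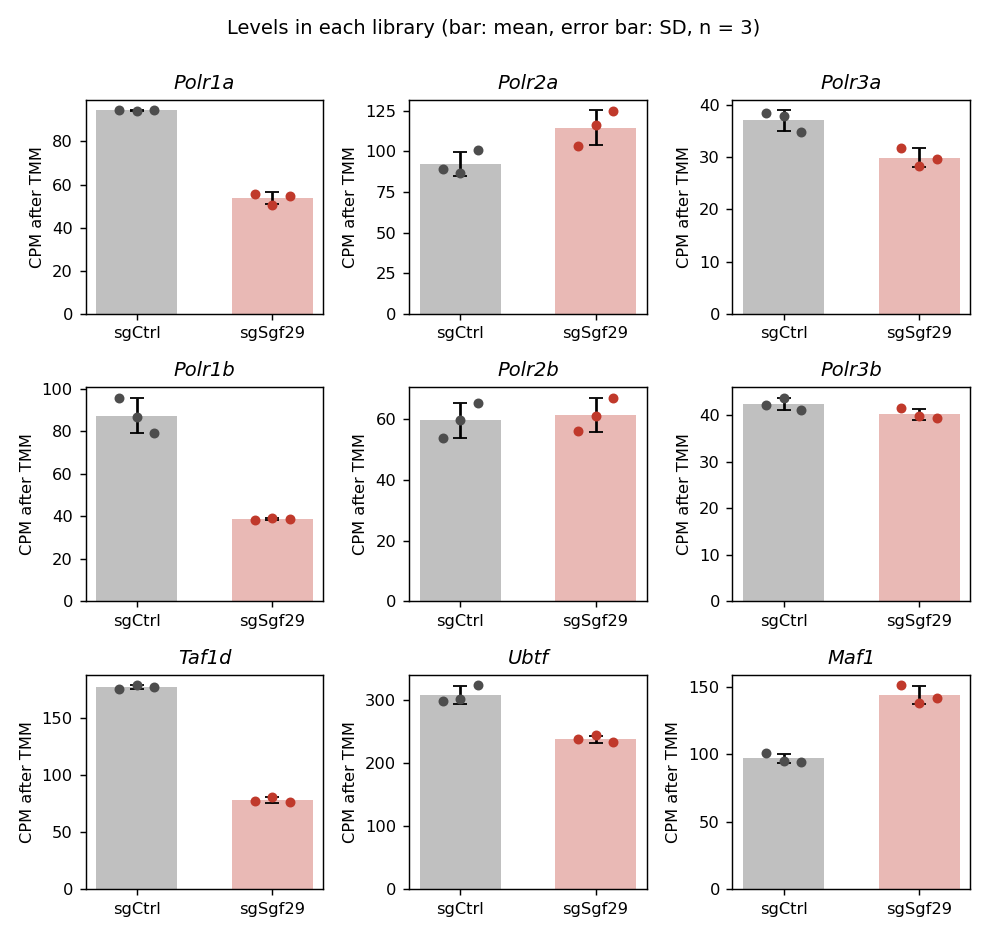
CPM after TMM scaling (vertical axes from 0) of 9 genes in sgCtrl and sgSgf29 cells. Bars are means, error bars the SD of 3 libraries and points single libraries. All sgSgf29 points lie above the controls for Polr2a and Maf1, points overlap for Polr2b and Polr3b, and those of Polr1a, Polr1b, Polr3a, Taf1d and Ubtf lie below.

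The subunits of Pol II alone went both ways. Polr2a, at chr11:69733997-69758633, encodes the largest subunit, which carries the C-terminal repeat domain, and was the one Pol II subunit that rose. It measured 89.2, 86.9 and 101 CPM with sgCtrl and 103, 116 and 125 CPM with sgSgf29, and the log2 fold change was 0.31 (standard error 0.076, edgeR adjusted p = 0.00103). The lowest sgSgf29 library exceeded the highest sgCtrl library by a small margin. Polr2b, the second largest subunit, measured 53.8, 59.9 and 65.4 CPM against 56.0, 61.2 and 67.2 CPM, with a log2 fold change of 0.042 (standard error 0.081, edgeR adjusted p = 0.653). Its groups overlapped almost wholly. Of the 5 smaller subunits, 4 fell. Polr2i, the zinc ribbon subunit, fell most of the 7, from 57.9, 52.5 and 54.5 CPM to 39.4, 33.6 and 38.4 CPM, with a log2 fold change of -0.57 (standard error 0.077, edgeR adjusted p = 1.55e-06). Polr2j, one of the assembly pair, measured 118, 106 and 110.1 CPM in sgCtrl and 84.5, 77.2 and 81.6 CPM in sgSgf29, with a log2 fold change of -0.46 (standard error 0.066, edgeR adjusted p = 2.87e-06). Its partner Polr2c measured 81.4, 76.3 and 84.1 CPM against 66.6, 65.6 and 65.4 CPM, with a log2 fold change of -0.29 (standard error 0.065, edgeR adjusted p = 0.000451). No library of one group reached the other in these 3 genes. Of the stalk pair, Polr2g fell by 0.26 on the log2 scale and Polr2d had a log2 fold change of -0.0031 that did not pass (edgeR adjusted p = 0.972). Polr2m encodes a protein that binds Pol II outside its core, and it fell by 0.25 (edgeR adjusted p = 0.00201).

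The subunits of Pol III alone fell unevenly. Polr3e and Polr3d, which encode a pair that resembles TFIIF, had the largest falls of the 9. Polr3e, at chr7:120917778-120947435, measured 64.4, 65.1 and 75.7 CPM with sgCtrl and 35.5, 34.7 and 39.5 CPM with sgSgf29, and the log2 fold change was -0.91 (standard error 0.079, edgeR adjusted p = 2.89e-09). Polr3d measured 17.3, 17.4 and 17.2 CPM against 10.2, 11.8 and 10.5 CPM and had a log2 fold change of -0.67 (standard error 0.11, edgeR adjusted p = 1.46e-05). The groups of both genes were wide apart. The log2 fold changes of the large subunits were smaller than those of Pol I. Polr3a measured 38.5, 37.9 and 34.8 CPM in sgCtrl and 31.8, 28.3 and 29.7 CPM in sgSgf29, with a log2 fold change of -0.31 (standard error 0.081, edgeR adjusted p = 0.00211). Polr3b measured 42.3, 43.9 and 41.3 CPM against 41.5, 39.8 and 39.4 CPM, and its log2 fold change of -0.077 (standard error 0.072, edgeR adjusted p = 0.345) did not pass. The 3 subunits of the initiation trimer are encoded by Polr3c, Polr3f and either Polr3g or its paralogue Polr3gl. Polr3c and Polr3f did not pass, with log2 fold changes of 0.017 and 0.16 (edgeR adjusted p = 0.825 and 0.19). Polr3g measured 17.2, 20.9 and 18.4 CPM against 13.4, 16.6 and 14.8 CPM, with a log2 fold change of -0.33 (standard error 0.11, edgeR adjusted p = 0.0132). Polr3gl measured 65.0, 68.2 and 61.6 CPM against 58.8, 58.1 and 52.5 CPM, and the log2 fold change was -0.20 (standard error 0.070, edgeR adjusted p = 0.0156). Polr3k, the zinc ribbon subunit, had a log2 fold change of -0.21 (edgeR adjusted p = 0.0146).

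The calls of Polr3g, Polr3gl and Polr3k rested on single libraries. The Polr3g call was lost without the second sgCtrl or the first sgSgf29 library (edgeR adjusted p = 0.0732 and 0.0779). Polr3gl did not pass without the second sgCtrl or the third sgSgf29 library (edgeR adjusted p = 0.0674 and 0.124), nor Polr3k without the first sgCtrl or the first sgSgf29 library (edgeR adjusted p = 0.0623 and 0.0813).

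Among the factors of Pol III, Maf1 moved against the rest. MAF1 is the repressor that binds Pol III when nutrients or growth signals are withdrawn, and the gene lies at chr15:76351294-76354378. It measured 101, 95.01 and 94.5 CPM with sgCtrl and 151, 138 and 142 CPM with sgSgf29, and the log2 fold change was 0.57 (standard error 0.064, edgeR adjusted p = 1.04e-07). Each sgSgf29 library was above each sgCtrl library by more than the range within either group. Brf1 and Bdp1 encode parts of TFIIIB, which places Pol III on tRNA and 5S genes. Bdp1 measured 25.8, 28.1 and 24.0 CPM against 20.6, 19.2 and 22.1 CPM, with a log2 fold change of -0.33 (standard error 0.10, edgeR adjusted p = 0.00444). Brf1 measured 99.3, 93.9 and 77.3 CPM against 70.5, 77.4 and 71.8 CPM, with a log2 fold change of -0.30 (standard error 0.080, edgeR adjusted p = 0.00272). The third sgCtrl library of Brf1 lay just below the second sgSgf29 library, so its groups overlapped. Brf2, which replaces BRF1 at genes such as that of U6 RNA, measured 16.8, 15.5 and 17.3 CPM against 15.4, 14.3 and 14.6 CPM. Its groups were apart by little and its log2 fold change of -0.17 (standard error 0.10, edgeR adjusted p = 0.153) did not pass.

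Ratios of counterpart subunits within a library do not depend on how libraries are scaled, and 14 such pairs were compared. With 3 libraries against 3, the smallest p that an exact permutation test can give is 0.1, which becomes 0.175 after Benjamini-Hochberg adjustment over the 14 pairs, so no pair can pass 0.05. The groups did not overlap for 8 of them. Several pairs share a gene, so they are not separate comparisons. No share over other pairs of genes was computed, and of single genes tested 72.1% did not overlap. The ratio of Polr1a to Polr2a, the largest subunits of Pol I and Pol II, was 1.06, 1.08 and 0.938 in sgCtrl and 0.540, 0.434 and 0.439 in sgSgf29, a difference of -1.13 in mean log2 ratio (exact permutation p = 0.1). For the second largest subunits, the ratio of Polr1b to Polr2b was 1.78, 1.45 and 1.21 in sgCtrl and 0.683, 0.640 and 0.579 in sgSgf29, a difference of -1.21 (exact permutation p = 0.1). Against Pol III, the ratio of Polr1b to Polr3b was 2.26, 1.98 and 1.92 and 0.921, 0.983 and 0.989, a difference of -1.09 with the same exact permutation p. Neither group reached the other in these 3 ratios. The ratio of Polr3a to Polr2a differed by -0.62 in mean log2 ratio and that of Polr1a to Polr3a by -0.51, both without overlap, while that of Polr3b to Polr2b differed by -0.12 with overlap (exact permutation p = 0.5).

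Ratios of Pol I to Pol II subunits differed less at the other positions, and only at the zinc ribbon did the difference go the other way. The ratio of the stalk subunits Twistnb of Pol I and Polr2g of Pol II differed by -0.061, with overlap (exact permutation p = 0.3). Among zinc ribbon subunits, Polr2i of Pol II had the most negative log2 fold change. The ratios of Znrd1 and of Polr3k to Polr2i were higher in sgSgf29 by 0.36 and 0.36 in mean log2 ratio, both without overlap, and that of Znrd1 to Polr3k was higher by 0.0064, with overlap (exact permutation p = 1). In the assembly pair the differences were -0.076 for Polr1c to Polr2c, with overlap, and -0.11 for Polr1d to Polr2j, without. The ratios of Polr3g to Polr3gl and of Brf1 to Brf2 overlapped (differences -0.13 and -0.13, exact permutation p = 0.4 and 0.5).

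**Figure D3:**
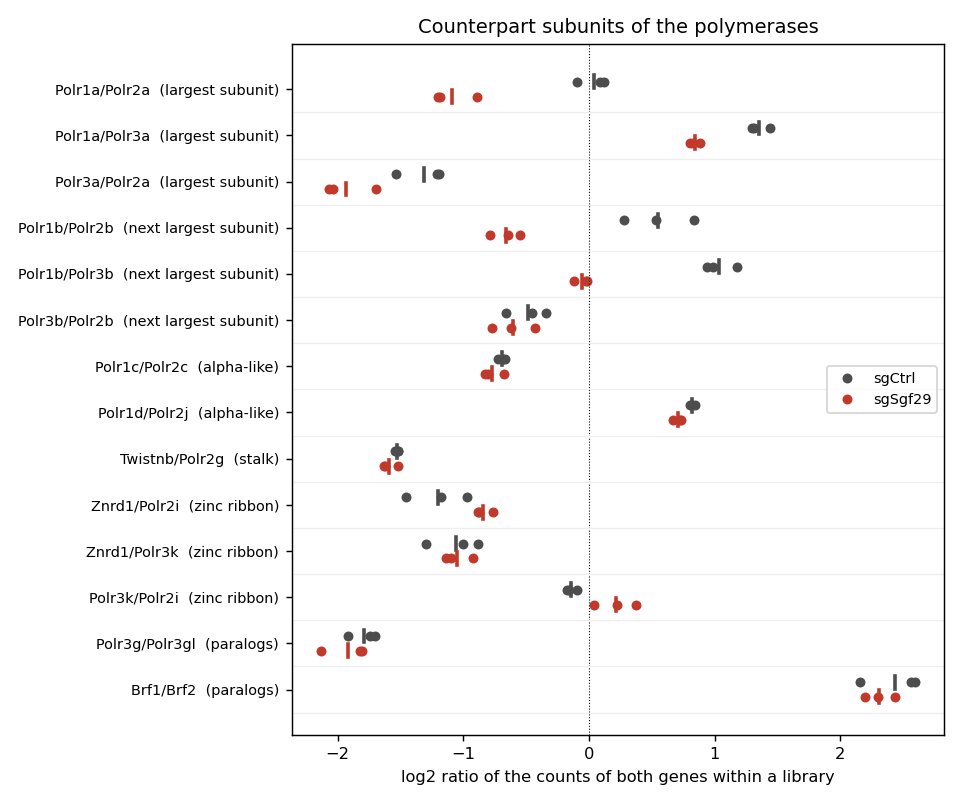
Log2 ratio of the counts of 2 counterpart genes within a library (horizontal axis) for the 14 pairs in rows, with the 3 sgCtrl and 3 sgSgf29 libraries as points of 2 colours and their mean as a tick. The ratios of Polr1a and Polr1b to their counterparts lie to the left in sgSgf29, those of Znrd1 and Polr3k to Polr2i lie to the right, and the groups overlap in 6 rows.

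Levels were compared between genes per kilobase of the principal transcript. All exons of a gene together can be longer, as in Polr2f with 2595 against 885 bases. The order between genes depends on this choice of length. In sgCtrl cells, the 40 genes ran from 183 ± 14.2 CPM per kilobase for Polr2f (SD, n = 3) to 2.62 ± 0.203 for Bdp1. Of the large subunits, Polr1b stood at 21.8 ± 2.08 CPM per kilobase, Polr2b at 14.4 ± 1.41, Polr2a at 13.7 ± 1.10, Polr1a at 10.2 ± 0.0167, Polr3b at 8.54 ± 0.262 and Polr3a at 7.91 ± 0.428 in the sgCtrl libraries (SD, n = 3), and the levels of Polr2b and Polr2a lay within their spread of each other. In sgSgf29 cells Polr2a was the highest of the 6 at 17.0 ± 1.61 CPM per kilobase, followed by Polr2b at 14.8 ± 1.35, and their SD ranges overlapped there as well. Polr1b had come to 9.70 ± 0.118 and Polr1a to 5.82 ± 0.306. Of the 3 highest genes on this scale, Polr2f came from the level above to 97.3 ± 6.38 CPM per kilobase, Polr2j from 173 ± 9.19 to 126 ± 5.73 and Polr1d from 165 ± 7.32 to 111 ± 3.69. Maf1 went from 55.5 ± 2.04 to 82.5 ± 3.85 CPM per kilobase.

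**Figure D4:**
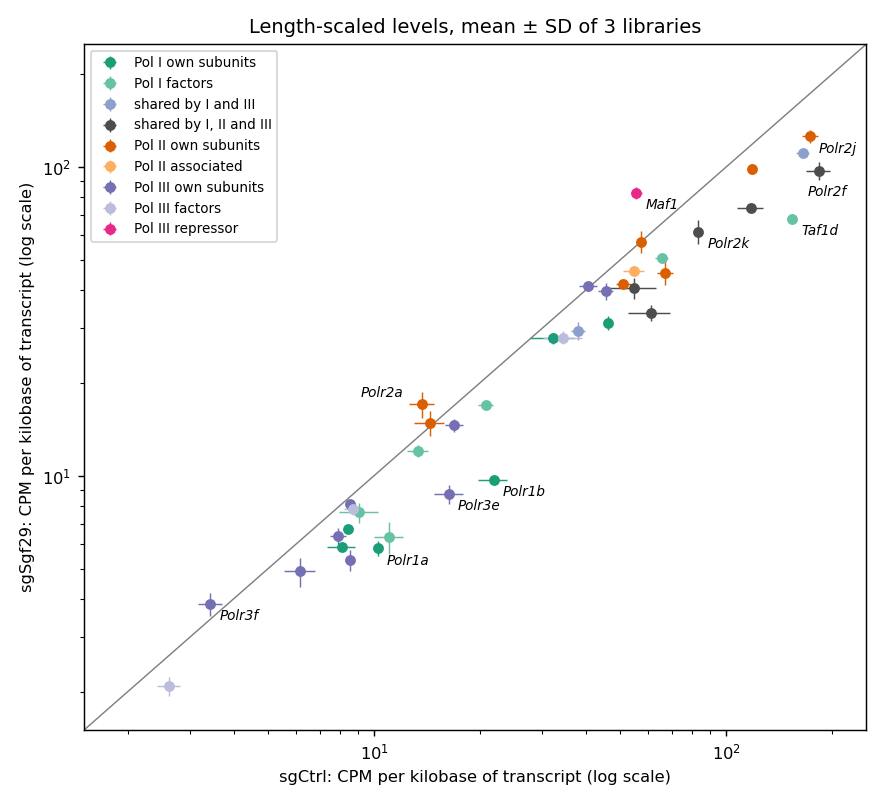
CPM per kilobase of the principal transcript in sgCtrl cells (horizontal axis) and in sgSgf29 cells (vertical axis), both logarithmic, as means of 3 libraries for each of the 40 genes, coloured by polymerase, with the diagonal of equal levels. Bars are the SD. Most points lie just below the diagonal, Polr1b, Taf1d and Polr3e farther below it, and Polr2a and Maf1 above it.

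Other genes that serve the polymerases were taken from 5 lists, to be read beside the 34.4% of all tested genes called lower and 35.4% called higher. Of 13 genes for assembly and nuclear import of the enzymes, 10 fell and none rose (median log2 fold change -0.36). Ruvbl2, an ATPase of the R2TP assembly complex, came from 349 to 168 CPM on average, with a log2 fold change of -1.06 (standard error 0.070, edgeR adjusted p = 4.62e-11), and Gpn1, a GTPase for import of Pol II, had a log2 fold change of -0.77 (standard error 0.079, edgeR adjusted p = 3.28e-08). Of 7 regulators of ribosomal RNA genes and the nucleolus, 4 fell and 2 rose (median -0.64). The nucleolar proteins Nolc1 and Mybbp1a had log2 fold changes of -0.999 (standard error 0.062, edgeR adjusted p = 1.55e-11) and -0.93 (standard error 0.067, edgeR adjusted p = 1.61e-10). The 2 that rose, Ttf1 and Baz2a, by 0.50 and 0.69, encode the terminator protein of Pol I and a subunit of a complex that silences ribosomal RNA genes, and were named after their values were seen. Of 19 general factors of Pol II, 11 fell and 1 rose (median -0.22). The one that rose, Gtf2b, had a log2 fold change of 0.47 and was named after its value was seen. Gtf2h1 and Gtf2h4, both parts of TFIIH, had log2 fold changes of -0.76 (standard error 0.064, edgeR adjusted p = 1.76e-09) and -0.74 (standard error 0.075, edgeR adjusted p = 2.7e-08). Of 14 accessory genes of Pol III, 5 fell and 4 rose (median -0.058), shares close to those of all genes tested. Gtf3a, the 5S gene factor TFIIIA, and Snapc4, the large subunit of the small nuclear RNA promoter complex, had log2 fold changes of -0.77 (standard error 0.066, edgeR adjusted p = 2.23e-09) and -1.07 (standard error 0.10, edgeR adjusted p = 7.4e-09). The 4 that rose were Gtf3c5, a subunit of TFIIIC, with a log2 fold change of 0.32, and Snapc1, Snapc3 and Snapc5, with 0.31, 0.54 and 0.54, which belong to the same promoter complex as Snapc4. They were named after their values were seen, and Snapc2 of that complex did not pass (log2 fold change 0.10, edgeR adjusted p = 0.352). Of 5 genes of mitochondrial transcription 3 fell and none rose (median -0.29). They included the mitochondrial RNA polymerase Polrmt, with a log2 fold change of -0.58 (standard error 0.082, edgeR adjusted p = 2.41e-06), and Tfam, with -0.29 (standard error 0.077, edgeR adjusted p = 0.00224).

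The scale of the libraries set how many of the smaller falls passed. With library size alone as the scale the median of all genes moved from 0.012 to 0.24 on the log2 scale. On that scale 17 of the 40 genes were lower and 6 higher. Of all 11169 genes tested, 2385 were lower and 5575 higher there. Of all calls 30.0% were lower, against 49.3% with TMM. The 6 were Polr2a, Maf1, Polr2b, Polr2d, Polr3c and Polr3f, and the last 4 did not pass with TMM. Of these, Polr2d also changed sign between the scales, while Polr2b, Polr3c and Polr3f were above 0 on both. A change of scale shifts all genes by nearly the same amount, so medians relative to that of all genes stay the same by construction. Relative to the median of all genes, the median of the 40 genes was -0.34 on both scales, that of the Pol I subunits -0.52, that of the Pol II subunits -0.28 and that of the Pol III subunits -0.22. Without that reference, the median of the Pol III subunits was 0.020 with library size alone, above 0. With either scale the falls of Polr1a, Polr1b, Cd3eap, Polr1e, Taf1a, Taf1d, Ubtf, Polr1d, Polr2i, Polr2j, Polr3d, Polr3e and all 5 subunits common to the enzymes passed. Coding genes on the opposite strand overlap 13 of the 40, among them Ercc1 at Cd3eap, Cep295 at Taf1d, Clcn2 at Polr2h and Tbcb at Polr2i. The library was directional, but how strand was treated in the counting is not known from the sources used here, so reads of such pairs cannot be assigned with certainty.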

How the data were processed

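Messenger RNA of 6 libraries, 3 of sgCtrl and 3 of sgSgf29 MLL-AF9 cells, was analysed. The other samples of the series, 14 in all, are of chromatin immunoprecipitation and were not used here. The authors deposited raw read counts per gene in 1 table. STAR, featureCounts, edgeR and mm10 are named in the paper, and STAR 2.6.0a and GRCm38 in the submitters' processing notes. The table carries 5 bookkeeping entries in htseq-count's form (25.9% to 31.4% of a library), which were left out. Annotation and strand setting are not given there.

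Counts were filtered with filterByExpr (a minimum count of 10 and a total of 15), scaled by TMM and tested over all 11169 genes by edgeR's quasi-likelihood method (edgeR 4.0.16, R 4.3.3). Genes with a Benjamini-Hochberg adjusted p under 0.05 were called. The libraries' biological coefficient of variation was 6.61%, and all pairs within a group differed by more than sampling noise (chi-square 4.48 to 15.4 per degree of freedom). The script was tested on simulated counts. Ratios within libraries used a prior count of 0.5 and 2-sided exact permutation tests. Alternatives were scaling by RLE, by the upper quartile, by library size alone or by TMM without ribosomal protein genes, limma-voom (limma 3.58.1), DESeq2 1.42.0, no filter, a prior count of 2, a replicate block and each library left out. The 40 genes, the gene lists and the tests were chosen with earlier results of these data known. Every gene was named, and values per library were given for the large subunits, the 3 genes of each group with the smallest adjusted p, called genes that moved against the majority of their group, and Polr3g, Polr3gl, Brf1, Brf2, Maf1, Rrn3 and Ubtf. A gene that the choice by symbol also finds, with its ratios and overlaps, is not reported here. Of the other lists, up to 2 called genes with the smallest adjusted p were named. Coordinates and sequences are from RefSeq (GRCm38.p6, windows for 32 of 40 genes), and transcript lengths and overlaps from GENCODE M21.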

Additional observations from a re-analysis of the deposited data

How the results depend on the processing

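RLE scaling, TMM without ribosomal protein genes, DESeq2, limma-voom, no filter on low counts and upper-quartile scaling each gave the same 30 lower and 2 higher genes of the 40. Upper-quartile scaling moved the median log2 fold change to -0.30 over the 40 genes. With library size alone, 17 genes were lower and 6 higher, against 2385 lower and 5575 higher of all 11169 genes tested. Lower were then 4 Pol I subunits, 3 Pol I factors, the 5 subunits common to all enzymes, Polr1d, 2 Pol II and 2 Pol III subunits. Higher were 3 Pol II and 2 Pol III subunits and Maf1. The medians were -0.28 for Pol I subunits, -0.099 for Pol I factors, -0.44 for the subunits common to all enzymes, -0.033 for Pol II subunits, 0.020 for Pol III subunits, which changed sign, and -0.093 over the 40 genes. On that scale the median of all genes shifted by 0.231, and 7 single genes changed sign: Polr2d to 0.23 (edgeR adjusted p = 0.00705), and, without passing there, Polr3gl to 0.031, Polr3k to 0.020, Znrd1 to 0.010, Taf1b to 0.084, Polr3b to 0.15 and Brf2 to 0.064. Leaving out each library in turn gave 27 to 30 lower and 2 higher genes, medians of -0.54 to -0.47 for the Pol I subunits and of -0.25 to -0.20 for the Pol III subunits, and a difference in the log2 ratio of Znrd1 to Polr3k of -0.11 to 0.096, below 0 without the first sgCtrl library and without the first sgSgf29 library (-0.059). The cause was not tested. Same-numbered libraries of the groups deviated together weakly (correlations 0.041, 0.11 and 0.15), so the numbers were not taken as pairs. Each library correlated best with its own number, a hint from the data and not from the design. With a replicate block, 30 genes were lower and 2 higher, the same genes, and 3937 of all genes were lower and 4059 higher. The standard errors were largest for genes of low count, with 0.12 for Taf1a and 0.062 for Ubtf.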
